A study of Mus musculus with 4 samples.

Results

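Of the 20 probes for the mouse miR-669 and miR-297 families on this microRNA array, 8 gave a detectable signal in hippocampus, and they are described here. They are the probes for miR-669a, miR-669c, miR-669d, miR-669e, miR-669f, miR-669l and miR-669n, and 1 probe that reads miR-297a*, miR-297b-3p and miR-297c* together. They were chosen by name and by the deposited spot flags: at least 2 of the 3 spots of a probe had to carry flag 0 on both arrays of a group. The tissue came from wild-type C57BL/6J mice, an inbred laboratory strain, that had been trained in the Morris water maze, a swimming test of spatial learning, and was taken directly after training. Mice that learned the maze well (good performers, 2 arrays) were compared with mice that learned it poorly (poor performers, 2 arrays), to ask which miRNAs go with individual learning performance. Both groups had been trained, and no untrained animals were analysed here. The series describes 4 mice in each group. Their division over the arrays is not given here in any source used. The p-values therefore reflect array-to-array spread, possibly technical, rather than known animal-to-animal spread.

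The miR-669 and miR-297 families, with their relatives miR-466 and miR-467, are rodent miRNAs that arose largely by repeated duplication inside the Polycomb-related gene Sfmbt2. That gene is imprinted, with expression from the paternal copy known best from the placenta. Like other miRNAs, each mature strand is cut from a hairpin and pairs with target mRNAs mainly through its seed, bases 2 to 8, and an asterisk in the older names marks the strand taken to be the minor product of its hairpin. Members of these families are rich in alternating purine and pyrimidine repeats and resemble each other closely, so a probe may also catch relatives of the miRNA it is named for.

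By the RefSeq gene annotation of mouse (assembly GRCm38.p6), 72 miRNA genes lie within Sfmbt2 on chromosome 2, of which 29 are miR-669 genes and 5 are miR-297 genes. All 8 probes matched this annotation by name, and 7 of them name at least 1 gene within Sfmbt2. miR-669n is the exception, with its single gene on chromosome 3. The shared miR-297 probe names 6 genes, 5 within Sfmbt2 and 1 on chromosome 7. miR-669a has 12 genes within Sfmbt2, so its probe sums over many loci. miR-669c, miR-669e, miR-669f and miR-669l have 1 gene each. The gene of miR-669f comes early in the row, as number 3 of 72, between a miR-466f gene (Mir466f-1) and that of miR-669e. The gene of miR-669c is number 58, between that of miR-297c and a miR-669a gene.

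Among the 8 probes, 1 mature sequence (miR-669n) was found by exact name in the RefSeq table of assembly GRCm38.p6. It is shown with those of miR-467f and miR-467g, the relatives with a sequence in that table whose values over the arrays were among the nearest to those of miR-669f (given further on). Capitals mark the seed. miR-669n lies at chr3:115979905-115979924 on the plus strand, miR-467f at chr11:69635419-69635439 on the minus strand and miR-467g at chr5:34732872-34732892 on the minus strand.
miR-669n: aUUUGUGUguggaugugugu
miR-467f: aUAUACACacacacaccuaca
miR-467g: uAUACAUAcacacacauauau
None of the 3 lies within Sfmbt2, and the 3 seeds differ. miR-669n carries a run of alternating U and G, and the other two carry alternating A and C. No other tested probe with a sequence in the table shared the seed of miR-669n.

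The 4 arrays were alike in overall signal. Between 310 and 330 of 705 probes were detected per array, the mean of the 36 blank spots was 63.0 to 64.4 in raw intensity, and 316 probes were detected in at least 1 group and tested. All 6 listed brain miRNAs, among them miR-124, were detected. Among the listed miRNAs of other organs, miR-122 of liver and miR-375 of endocrine pancreas were not detected. The muscle miRNAs miR-1, miR-133a and miR-206 of that list were detected. They were dim: miR-206 read 76.7 to 86.0 over the 4 arrays. miR-133a was detected through the good-performer arrays alone, with 70.7 and 72.3 and 0 spots at flag 0 on the poor-performer arrays. All sums below are of raw intensity and include the blank level. The summed raw intensity of the 6 brain miRNAs was 32960 to 32985 in good and 30164 to 30806 in poor performers, and none passed the test. Of the other marker lists, 3 of 3 oligodendrocyte miRNAs were detected, with a summed raw intensity of 1071 to 1080 in good and 1143 to 1164 in poor performers, and miR-219 fell (limma adjusted p = 0.025). For blood 2 of 3 were detected, and those summed to 256 to 278 in good and 269.7 to 275 in poor performers. The whole blood list summed to 314 to 342 in good and 336 to 489 in poor performers, where the 489 rests on a bright reading of miR-144, which was not detected, on 1 poor-performer array (poor performers replicate 2). For choroid plexus and epithelium 1 of 5 was detected, miR-141, at 165 to 170.3 in good and 165 to 170.0 in poor performers. For other organs it was 3 of 8, summing to 256 to 259.7 in good and 248 to 262 in poor performers. Over the whole of these last lists, undetected probes at blank level included, the sums were 403 to 415 in good and 398 to 404 in poor performers for choroid plexus and epithelium, and 577 to 579 in good and 556 to 578 in poor performers for other organs. No listed miRNA of these 3 lists passed the test. In bulk tissue, fewer cells of a type and less RNA per cell cannot be told apart, and the part of cell makeup in the results below was not tested.

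miR-669f was the member with the clearest difference and was higher in good performers. Its raw intensity, averaged over 3 spots, was 393 and 419 on the good-performer arrays, against 269.7 and 281 on the poor-performer arrays. The groups did not overlap, and this held at each spot. The first spot read 462 and 469 in good against 315 and 322 in poor performers. The second read 379 and 423 in good against 257 and 272 in poor performers, and the last read 339 and 366 in good against 237 and 250 in poor performers. The 3 spots of 1 array differed by more than the 2 arrays of a group did at the same spot, and in the same order on every array, yet the log2 ratio of good over poor performers kept within 0.53 to 0.60 over the spots.

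**Figure D1:**
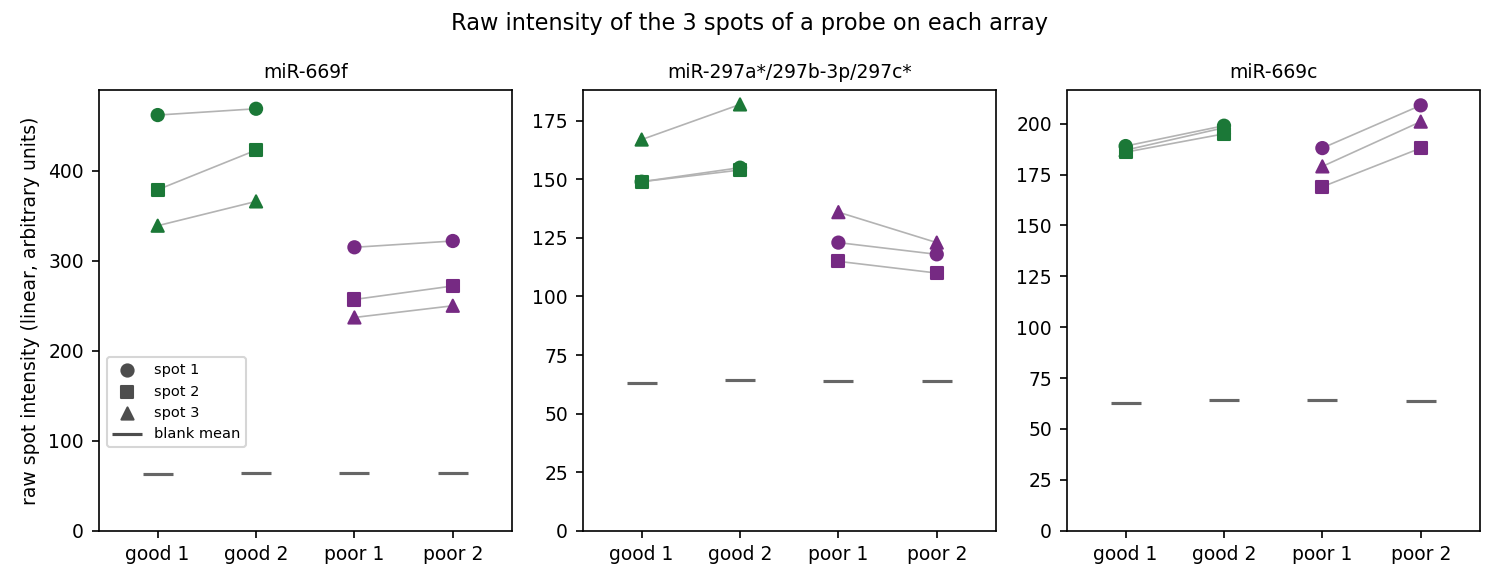
Raw spot intensity (linear, arbitrary units) of the 3 spots of each probe, for the 2 good-performer and the 2 poor-performer arrays, with the mean of the blank spots as grey dashes and lines joining the same spot within a group. Every miR-669f and miR-297 spot is higher on both good-performer arrays than on either poor-performer array, while the miR-669c spots overlap.

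After normalization the log2 intensity of miR-669f was 8.60 ± 0.028 on the good-performer arrays and 8.13 ± 0.022 on the poor-performer arrays (SD, n = 2 each). The log2 fold change was 0.46 ± 0.03 (SE; 95% interval 0.38 to 0.55), or 1.38-fold, with a limma p of 0.0065 after Benjamini-Hochberg adjustment over the 316 probes. It ranked 6 of 316 by fold change. The call held under all 14 alternative settings that used all 4 arrays, with log2 fold changes of 0.32 to 0.59 and adjusted p of 3.9e-05 to 0.032. It was lost when any 1 array was left out (adjusted p = 0.085 to 0.148), where the fold change stayed at 0.44 to 0.48. Its log2 ratio in the authors' deposited table was 0.47, number 4 of 383 from the top. In that table the sorted values of the 2 good-performer arrays differed by at most 9.1 intensity units. Matching arrays within a group can narrow their spread, so limma p-values from that table, centred or not, are no separate check.

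The probe shared by miR-297a*, miR-297b-3p and miR-297c* pointed the same way without passing the test. Its raw intensity was 155 and 164 in good performers, against 125 and 117 in poor performers. Each of its 3 spots was higher on both good-performer arrays than on either poor-performer array, with log2 ratios of 0.34 to 0.43. The normalized log2 intensity was 7.30 ± 0.013 on the good-performer arrays and 6.94 ± 0.102 on the poor-performer arrays (SD, n = 2 each), so the poor-performer arrays were the more spread. The log2 fold change of 0.36 ± 0.06 (SE; 95% interval 0.21 to 0.52) just missed the threshold (limma adjusted p = 0.057). It passed in 5 of the 14 alternative settings with all 4 arrays: 75th percentile scaling (adjusted p = 0.0082), cyclic loess (0.0030), no normalization (0.027), the centred authors' table (0.046) and the trended and robust variance model (0.0016). Over the other 9 the adjusted p was at most 0.099. Its value moved by over 1.5 times with offset 1 (0.57), offset 200 (0.18) and in the authors' normalized table (0.21). Its log2 ratio in the authors' deposited table was 0.21.

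**Figure D2:**
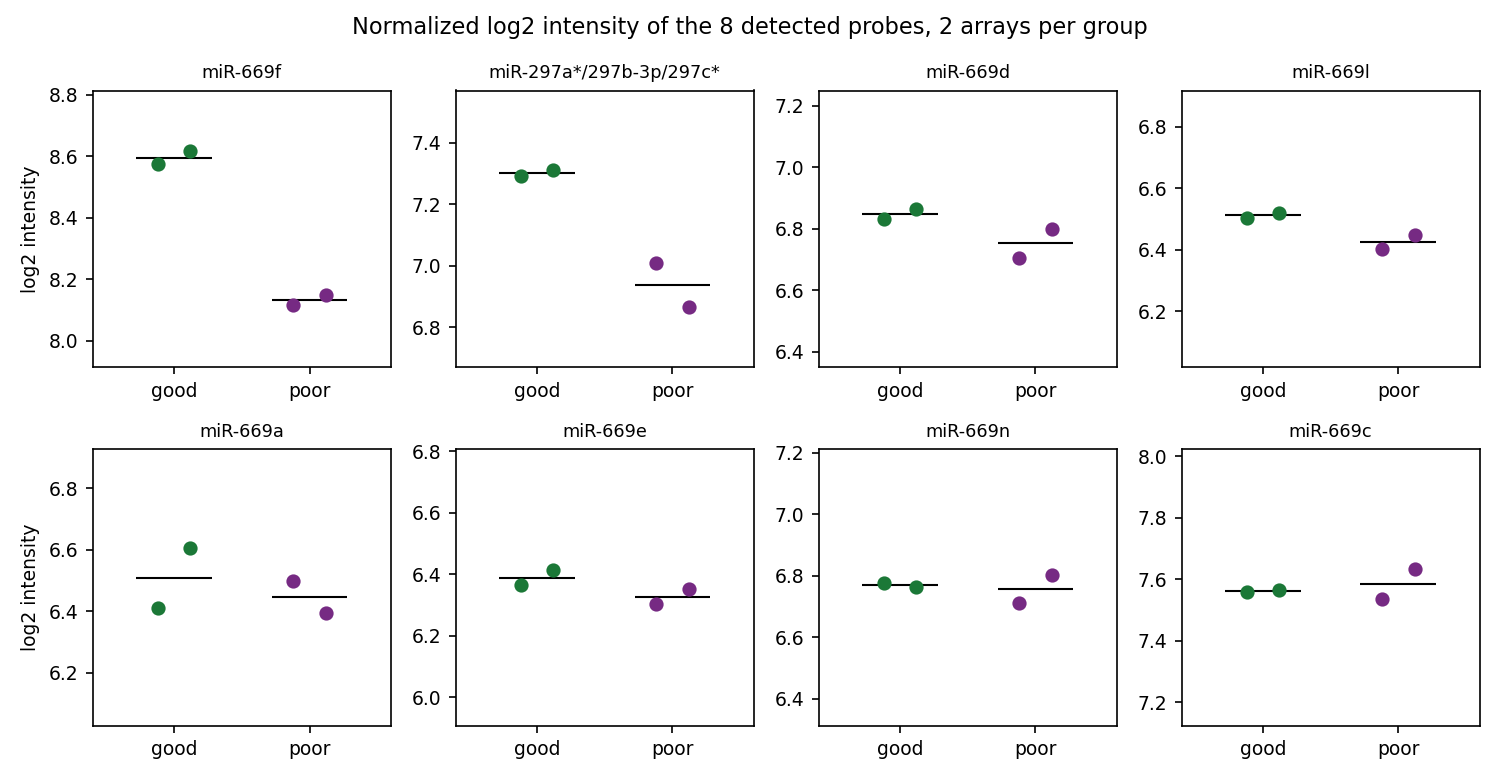
Normalized log2 intensity of each of the 8 probes on the 2 good-performer and 2 poor-performer arrays (points, with the group mean as a line), every panel spanning the same log2 range. miR-669f and the miR-297 probe stand apart between groups by 0.46 and 0.36, and the other 6 by less than 0.1.

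The remaining 6 probes, all of the miR-669 family, had log2 fold changes of -0.022 to 0.095, and none passed the test. miR-669d had a raw intensity of 113 and 120.0 in good against 102 and 111 in poor performers. The groups did not overlap, and the log2 fold change was 0.095 (95% interval -0.026 to 0.22; limma adjusted p = 0.321). It was 0.048 without poor performers replicate 1, 0.042 in the authors' normalized table, 0.16 in that table centred, 0.17 with offset 1 and 0.040 with offset 200. miR-669l had 90.0 and 93.7 in good against 81.3 and 87.3 in poor performers, again without overlap, and a log2 fold change of 0.087 (95% interval -0.00014 to 0.17; limma adjusted p = 0.233). Blank spots averaged 63.0 to 64.4, so miR-669l lay close to them on all 4 arrays.

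miR-669a, studied elsewhere in mouse as a regulator of the muscle factor MyoD, and miR-669e were detected through the good-performer arrays alone. A probe that enters this way is more likely to read higher in good performers, so their direction supports nothing. miR-669a read 84.0 and 99.3 in good against 88.0 and 84.0 in poor performers, and the groups overlapped. Its log2 fold change was 0.063 (95% interval -0.16 to 0.29; limma adjusted p = 0.725), and it was -0.035 without good performers replicate 2. miR-669e read 81.7 and 88.0 in good against 76.0 and 81.7 in poor performers, so the groups met in raw intensity, and its log2 fold change was 0.062 (95% interval -0.037 to 0.16; limma adjusted p = 0.452). miR-669e was also the member nearest to the detection limit, with 2 and 2 spots at flag 0 on the good-performer arrays and 1 and 2 on the poor-performer arrays. Just outside the limit, 3 probes each lacked 2 spots. miR-669o had 0 and 2 spots at flag 0 in good and 0 and 2 in poor performers, miR-669b had 1 and 0 in good and 1 and 1 in poor performers, and miR-297a had 0 and 0 in good and 1 and 1 in poor performers.

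miR-669n, the member encoded outside Sfmbt2, read 109 and 111 in good against 102 and 111 in poor performers, and the groups overlapped. Its log2 fold change was 0.013 ± 0.04 (SE; 95% interval -0.10 to 0.13; limma adjusted p = 0.921). Over the 76 tested probes whose exact name has a mature sequence in the RefSeq table, the run UGUGUG, which miR-669n holds, was found on the printed strand in 5 (6.58%), and the run ACACAC in 3 (3.95%). These motifs were chosen after values were seen and carry no test. The 5 with UGUGUG (miR-1187, miR-466j, miR-467h, miR-574-5p and miR-669n) had log2 fold changes of -0.21 to 0.13, and 0 passed. The 3 with ACACAC (miR-467f, miR-467g and miR-574-3p) had 0.22 to 0.45, and 2 passed, miR-467f and miR-467g. Both belong to the miR-467 family, where 5 of 6 tested probes were called, beside 5.06% of all 316 tested probes. The part of the motif apart from the family was not tested.

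miR-669c, known in mouse liver from work on ageing, read 187 and 197 in good against 179 and 199 in poor performers, and the groups overlapped. All 12 of its spot readings carried flag 0, so it was not a probe at the detection limit. Its log2 fold change was -0.022 ± 0.04 (SE; 95% interval -0.14 to 0.10; limma adjusted p = 0.840). The interval does not reach the 0.46 of miR-669f. It turned to 0.0019 with 75th percentile scaling, 0.020 without normalization, 0.022 in the centred authors' table and 0.026 without poor performers replicate 2.

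**Figure D3:**
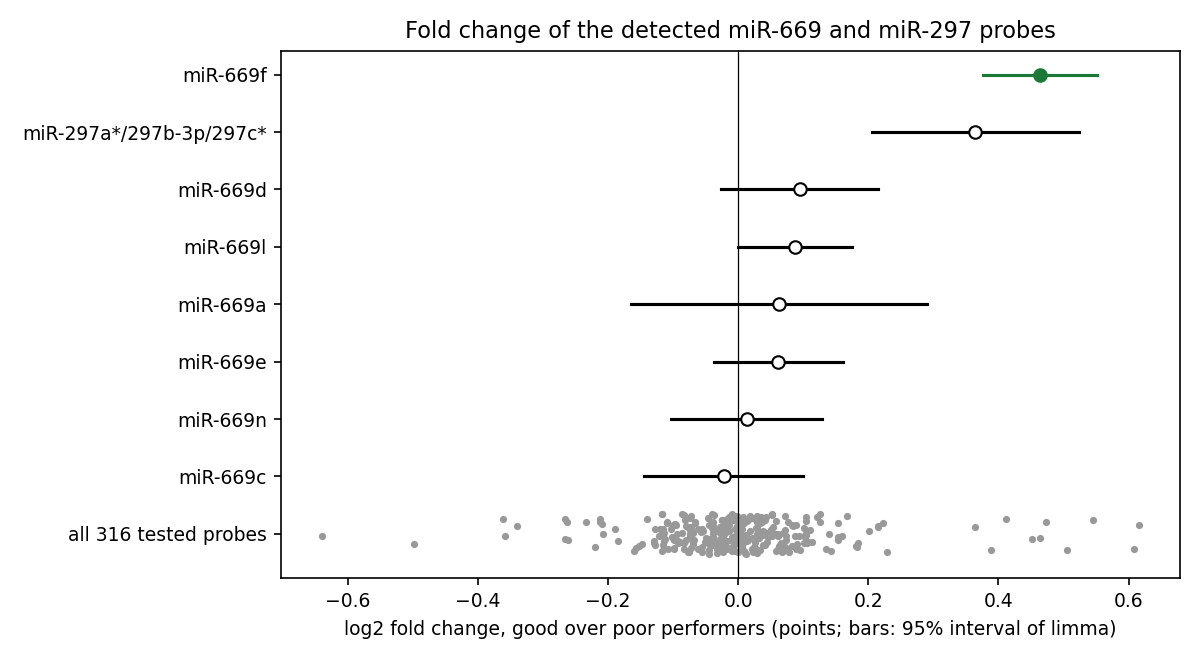
Log2 fold change of good over poor performers for each of the 8 probes (points, filled green where limma called the probe, with the 95% interval as a bar) above the fold changes of all 316 tested probes (grey points, spread vertically at random). The interval of miR-669f runs from 0.38 to 0.55, and the intervals of 6 probes include 0.

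As a list, 1 of the 8 probes was called higher in good performers and 0 lower (limma; 2 higher and 0 lower at an unadjusted p of 0.05). Of all 316 tested probes 5.06% were called, 3.16% higher and 1.9% lower, and at an unadjusted p of 0.05 it was 10.1% higher and 10.8% lower. Arrays did not overlap with good above poor performers in 5 of 8 members, of which miR-669e had entered through the good-performer arrays alone, and in 4 of the 6 members detected in both groups, against 23.1% of all tested probes. No member had both poor-performer arrays above both good-performer arrays (0 of 8, against 27.5%). The median log2 fold change was 0.075 over the 8 members and -0.0072 over all tested probes, and over the 6 members detected in both groups it was 0.091. One call among 8 is too few to set the list apart from the background, and members that resemble each other in sequence are not independent readings.

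miR-669f and miR-669c, which have 1 gene each within Sfmbt2 and flag 0 on all spots, had unequal differences between the groups in these arrays. Within an array, log2 miR-669f minus log2 miR-669c was 1.02 and 1.05 in good against 0.58 and 0.51 in poor performers. These probes also had the largest and the lowest log2 fold change of the 8 members, so this contrast restates those values. The groups did not overlap, and with 2 arrays against 2 an exact two-sided permutation test cannot give a p below 0.333. Such differences are read only between groups, since probes differ in how brightly they bind.

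The tested probes whose values over the 4 arrays ran nearest to those of miR-669f, by Euclidean distance between centred log2 profiles over 308 probes outside these 2 families, all belonged to the miR-467 and miR-466 families. They were miR-467f (distance 0.021), miR-467e* (0.060), the shared miR-467a-1* and miR-467d* probe (0.062), miR-466g (0.066) and miR-467g (0.085). The distance from miR-669f to the miR-297 probe was 0.16, and to the other 6 members 0.37 to 0.49. The length of the centred miR-669f profile was 0.465, close to its log2 fold change of 0.464. The distance therefore mostly follows how near a probe's fold change is to that of miR-669f. The named probes had log2 fold changes of 0.39 to 0.51, so their nearness is not separate from their calls. All profiles come from the same 4 arrays, so this is a description of these arrays. Of the 17 tested miR-466 and miR-467 probes 8 were called higher and 0 lower (limma; 10 and 0 at an unadjusted p of 0.05). Over all 316 tested probes it was 3.16% higher and 1.9% lower (10.1% and 10.8% unadjusted). The log2 fold changes of the 17 were 0.00037 to 0.62, the largest in miR-466f-3p (0.62) and miR-467b* (0.61). Among the 17, miR-466b-3-3p, which was not called, had entered through the good-performer arrays alone.

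The direction of the dim members depended on the scaling. Spike-in controls, which are RNA added in fixed amount, were themselves higher on the good-performer arrays by 0.030 to 0.24 log2 units after 75th percentile scaling. The largest difference was that of control 1, the brightest, and the smallest that of control 5, the dimmest. Control 5 read 878 to 1040 in raw intensity, while no spot of a member exceeded 469. Scaling to the spike-ins thus uses controls brighter than every member. Both U2 small nuclear RNA probes were higher by 0.44 and 0.50, and the other U-series small RNA probes by 0.025 to 0.30. When arrays were scaled to the spike-ins, the median of all tested probes moved to -0.11, miR-669f kept 0.41 and its call (adjusted p = 0.0019), and the miR-297 probe had 0.25 (adjusted p = 0.072). On that scale miR-669a, miR-669d, miR-669e, miR-669l and miR-669n had values below 0 together with miR-669c, at -0.12 to -0.023, beside that median of -0.11. In the authors' normalized table, where that median was -0.083, 4 of the 8 members had the higher mean in good performers. The part of the spike-in and U2 differences in the result for miR-669f was not tested beyond this scaling.

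**Figure D4:**
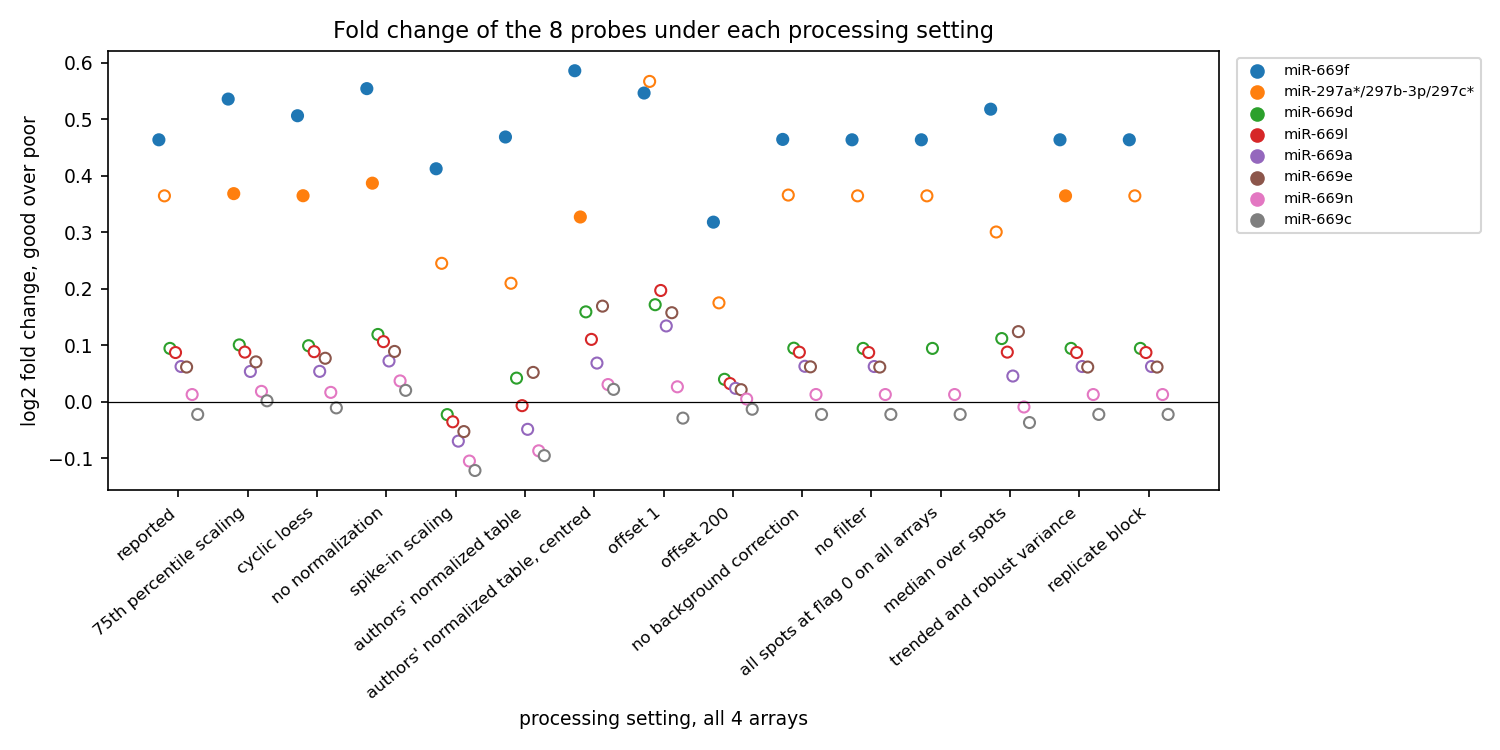
Log2 fold change of good over poor performers for each of the 8 probes in the reported setting and 14 alternatives with all 4 arrays, except that miR-669a, miR-669e and miR-669l have no value where all spots had to be at flag 0 (filled where limma called the probe at an adjusted p under 0.05). miR-669f is filled throughout, the miR-297 probe in 5 alternatives, and the other members lie near 0, shifting together below it with spike-in scaling.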

How the data were processed

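Cy5-labelled hippocampal RNA (2.5 µg per array) was hybridised with 1 sample per array, per the labels' protocols. The deposited raw intensity is unnormalized spot brightness with a flag of 0 or -50 per spot, per the file headers. The authors' normalized intensity covered 383 probes, per the file headers, by a method not given in the sources used here, and the series matrix holds identical values. Its sorted values nearly matched between the 2 good-performer arrays, which limits the limma calls made from it. The authors' log2 ratio set good over poor performers, per the file headers.

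Raw values were background-corrected (normexp, offset 50, limma 3.58.1, R 4.3.3), quantile-normalized on the log2 scale over miRNA spots and averaged over 3 spots. The offset understates changes of dim probes. The 316 probes detected on both arrays of a group were fitted with lmFit and eBayes, two-sided, with Benjamini-Hochberg adjustment over all of them and a threshold of 0.05. The number of arrays limits precision. On probe means, the mean squared difference between the arrays of a group exceeded spot noise. It was 2.68 (good) and 2.34 (poor) times the value that spot noise gives a mean of 3 spots (300 probes). The arrays were thus not copies of 1 array. Each was counted as 1 replicate, which does not show separate animals. The fit was tested on simulated data with independent noise of equal size for every probe and planted changes larger than any member's. That setting is simpler than these arrays, so it checked the code and not the results. Every member is named; other names followed rules for likeness, related families, controls and markers, or a motif count. Members and lists were chosen with earlier results of these data known. Alternatives covered scaling, background, offset, filter, spot summary, variance model, replicate block, the authors' table and each array left out.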

Additional observations from a re-analysis of the deposited data

Results flagged for a closer look

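Among the 12 family probes that were not detected and entered no comparison, miR-669b and miR-669o exceeded the highest blank spot on both good-performer arrays. miR-669b had a mean raw intensity of 74.2 in good and 70.3 in poor performers, and 3 of its 12 spot readings carried flag 0. miR-669o had 78.3 in good and 76.2 in poor performers, with 4 of 12 readings at flag 0. Each was above the highest blank spot on 3 of 4 arrays, and neither was tested between groups.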

How the results depend on the processing

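The 2 arrays per group limit these results, as do members little brighter than blank spots. miR-669f kept its direction and call in the 14 settings with all 4 arrays and lost the call without any 1 array (0.436 to 0.478). That fit has fewer degrees of freedom and takes the spread of the single array left in a group from the other group. Without 1 array 0 to 0 probes were called in all (limma; 41 to 57 at an unadjusted p of 0.05), and 0 to 0 members. Probes called in all, 16, became 31 with spike-in scaling, 37 in the authors' normalized table, 6 with the median over spots, 7 with offset 1 and 30 with a trended and robust variance model. Members called, 1, became 2 with 75th percentile scaling, cyclic loess, no normalization, the centred authors' table and the trended and robust model. Members with the higher mean in good performers, 7, became 2 with spike-in scaling, 4 in the authors' table and 4 of 5 testable with all spots at flag 0. Their median, 0.075, became -0.044 with spike-in scaling, 0.018 in the authors' table, 0.13 after centring it, 0.16 with offset 1 and 0.028 with offset 200. Signs turned with spike-in scaling for miR-669a (-0.070), miR-669d (-0.023), miR-669e (-0.053), miR-669l (-0.035) and miR-669n (-0.10). They turned in the authors' table for miR-669a (-0.049), miR-669l (-0.0067) and miR-669n (-0.087), and with the median over spots for miR-669n (-0.0091). miR-669c turned with 75th percentile scaling (0.0019), no normalization (0.020) and the centred table (0.022). Without 1 array miR-669a ranged from -0.035 to 0.158, miR-669c from -0.075 to 0.026 and miR-669n from -0.035 to 0.058. The cause of these changes was not tested. A replicate block left 13 probes and 1 member (miR-669f, adjusted p = 0.015) called. The per-probe difference of array 1 minus array 2 correlated at 0.18 between the groups, over the 316 tested probes. The array numbers were not taken as pairing.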
